A study of Mus musculus with 8 samples.

Results

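The H3K27Ac regions described here carried at least 2 times as much of the mark in *Arid1a cKO* as in control hearts. They were chosen by measured values, from the authors' group means: a concentration of at least 5 in *Arid1a cKO* hearts, which is 32 normalized reads, and a concentration at least 1 higher than in controls. A concentration is the mean number of normalized reads of a peak in a group on the log2 scale, so that a difference of 1 is a doubling. The rule held for 499 of 45987 peaks, or 1.09% of the table. The libraries were made from ventricles at P7. The 2 controls were *Arid1a* f/f animals without Cre, and the 2 *Arid1a cKO* mutants were aMHC-Cre;*Arid1a* f/f littermates, so that both groups carried the floxed alleles. Each heart gave a library precipitated with an antibody against H3K27Ac and an input library, for 8 libraries in all. The αMHC promoter drives Cre in cardiomyocytes, while whole ventricle also holds fibroblasts, endothelial cells, smooth muscle and leukocytes, in which this promoter is not active.

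ARID1A is a DNA-binding subunit of the SWI/SNF (BAF) chromatin remodeling complex, which moves nucleosomes and opens regulatory DNA. H3K27Ac, the acetylation of histone H3 at lysine 27, marks active promoters and enhancers, and enhancers marked by it often lie far from the genes they act on. TEAD factors bind DNA at the core CATTCC and recruit YAP and TAZ, the coactivators held back by the Hippo pathway, which promote growth of the heart before and shortly after birth.

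The table holds 0 columns of single samples. Each value below is therefore the authors' mean of a group, no spread between replicates can be given, no difference of a peak was tested, and the depth of the libraries is unknown. Because the difference between the groups chose the peaks, their differences are a description and no evidence of a change. In bulk ventricle, fewer cells of a type and less mark per cell cannot be told apart. The mark was looked up at 8 marker genes of cardiomyocytes, which does not show from which cells a peak comes. Of these, 7 had a peak, from 44.0 normalized reads in controls over the peaks of *Tnni3*, which encodes cardiac troponin I, to 4893 over those of *Ryr2*, the calcium release channel. *Actc1*, cardiac actin, was nearest to no peak. The deletion itself cannot be checked with this mark. The promoter peak of *Arid1a* had 1607 normalized reads in controls and 1663 in mutants.

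Stretches of 6 doubled peaks are shown first as examples. All were read from the GRCm38.p6 reference sequence of RefSeq, the assembly of mm10, outside annotated exons. Capitals mark the TEAD core CATTCC, the AP-1 motif TGANTCA and the CArG box of serum response factor, on either strand. Where a peak held the longer TEAD form ACATTCCA outside exons, the 200 bases around that match are given, and otherwise the 200 bases nearest to the centre. Except at *Olfr223*, the peaks were chosen for this form. Each was the doubled peak of its gene with the largest difference among those that hold it. The stretches are therefore no measure of how common the motif is in doubled peaks.
*Fgf7* peak, chr2:126065264-126065463, plus strand: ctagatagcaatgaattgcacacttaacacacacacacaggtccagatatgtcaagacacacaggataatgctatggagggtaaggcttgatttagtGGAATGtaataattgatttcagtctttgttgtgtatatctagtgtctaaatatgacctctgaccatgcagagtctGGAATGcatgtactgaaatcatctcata
*Gdf6* peak, chr4:9830496-9830695, plus strand: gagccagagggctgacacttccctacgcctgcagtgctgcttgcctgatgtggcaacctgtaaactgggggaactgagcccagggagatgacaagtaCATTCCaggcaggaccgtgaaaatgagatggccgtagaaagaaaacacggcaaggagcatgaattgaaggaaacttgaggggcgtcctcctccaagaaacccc
*E130006D01Rik* peak, chr5:111748620-111748819, plus strand: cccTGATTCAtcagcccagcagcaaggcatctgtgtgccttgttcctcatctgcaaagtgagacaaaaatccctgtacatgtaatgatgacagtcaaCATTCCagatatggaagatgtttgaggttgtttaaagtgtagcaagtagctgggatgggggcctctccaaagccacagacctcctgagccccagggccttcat
*Myl7* peak, chr11:5891819-5892018, plus strand: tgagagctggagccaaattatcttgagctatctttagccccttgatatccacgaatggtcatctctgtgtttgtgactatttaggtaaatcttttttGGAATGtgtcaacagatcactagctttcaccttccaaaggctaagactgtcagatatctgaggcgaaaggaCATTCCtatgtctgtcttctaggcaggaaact
*Tcf21* peak, chr10:23003332-23003531, plus strand: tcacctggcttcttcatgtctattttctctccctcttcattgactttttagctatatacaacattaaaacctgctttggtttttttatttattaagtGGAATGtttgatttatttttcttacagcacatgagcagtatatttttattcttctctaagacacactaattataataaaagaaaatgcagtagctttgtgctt
*Olfr223* peak, chr11:59598816-59599015, plus strand: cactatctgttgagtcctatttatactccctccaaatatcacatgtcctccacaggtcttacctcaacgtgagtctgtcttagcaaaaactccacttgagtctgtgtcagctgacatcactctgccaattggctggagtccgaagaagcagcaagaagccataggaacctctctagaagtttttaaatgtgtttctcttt
The first 3 lie in or near genes with several doubled peaks or large differences. The fourth and the fifth lie near an atrial and a fibroblast marker, and the last is the centre of the peak with the largest difference among those with over 3 reads in controls. In the *Fgf7* and *Myl7* stretches, 2 TEAD cores stand within 200 bases. The *Gdf6*, *E130006D01Rik* and *Tcf21* stretches hold 1 TEAD core each, and that of *E130006D01Rik* also holds 1 AP-1 match. The *Olfr223* stretch holds none of the 3 motifs, although its whole peak holds 2 TEAD cores and 3 AP-1 matches. A match is a run of letters and not a measured binding site.

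Most doubled peaks were weak in controls and moderate in *Arid1a cKO* hearts. Their median concentration was 4.25 in controls and 5.55 in *Arid1a cKO* hearts, which is 19.0 and 46.9 normalized reads. The quartiles were 15.0 and 29.4 normalized reads in the control group and 38.1 and 75.1 in mutants. The median difference was 1.24 (quartiles 1.08 and 1.56), against 0.01 over all 45987 peaks. A difference under 1.25 was found in 256 of the doubled peaks, at least 2 in 57 and at least 3 in 23. A control mean over 16 normalized reads was found in 337 of them, a control mean over 3 and up to 16 in 155, and a control mean at or under 3 in 7. The last group, 1.40% of the doubled peaks (95% Wilson interval 0.681% to 2.87%, counting error only), had next to no mark in controls. Fold differences of these 7 are given as lower bounds, computed against 3 normalized reads per group.

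**Figure D1:**
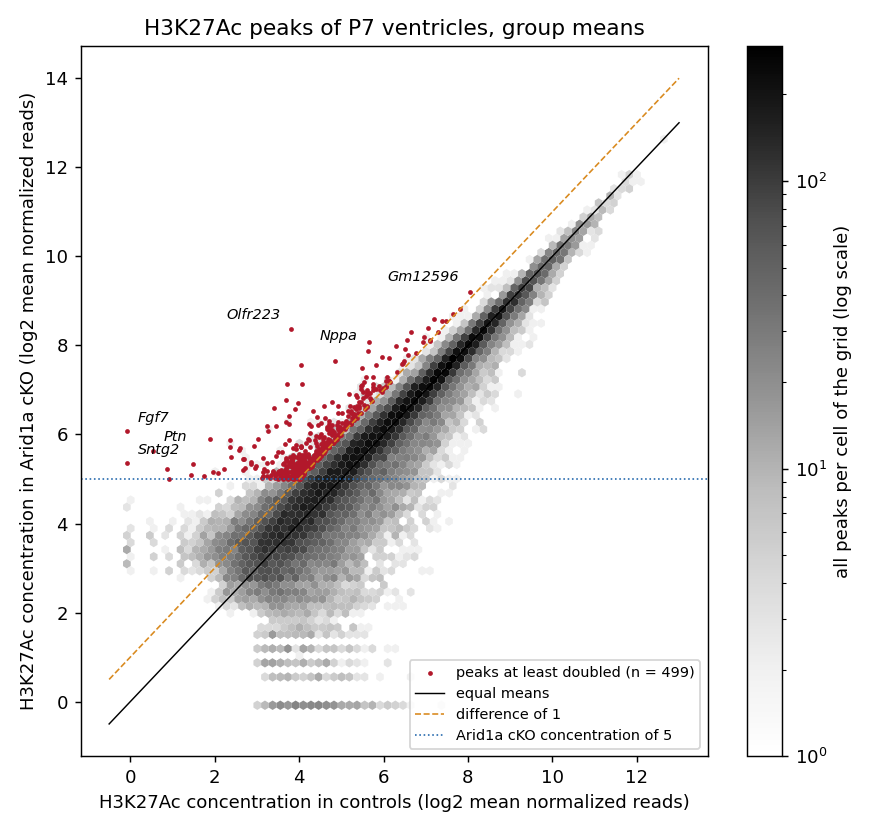
Concentration of H3K27Ac in controls (horizontal axis) and in *Arid1a cKO* hearts (vertical axis), both as log2 of the mean normalized reads of a group, with all peaks as grey cells and the 499 doubled peaks as red points. The doubled peaks lie above the dashed line of a difference of 1 and above the dotted line of a concentration of 5, most of them close to both lines, and *Olfr223* stands apart at 3.81 in controls and 8.36 in mutants.

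The share of doubled peaks dropped with the level of the peak. It was 5.64% of the 4152 peaks with a concentration from 5 to 5.5 in *Arid1a cKO* hearts, 1.49% of the 6986 from 6 to 7, and 0.286% of the 5590 at 8 or more. Peaks halved in mutants, with a control concentration of at least 5 and a difference of -1 or less, were 5.89% of all peaks. Their share was 15.7% of the peaks from 5 to 5.5 in controls and 3.11% at 8 or more. Another 1604 peaks had a difference of at least 1 but a concentration under 5 in *Arid1a cKO* hearts, so that 4.57% of all peaks had a difference of at least 1 at any level. The limits cut through a continuous range. A difference of exactly 1 was found in 18 peaks inside the limit and of 0.99 in 14 peaks just outside it. The strongest just inside lay nearest to *Igf2bp2* (158 normalized reads in controls and 315 in mutants), *Strn* (138 and 276) and *Myzap* (62.2 and 124). The strongest just outside lay nearest to *Ccnk* (122 and 242), *Arhgap39* (77.2 and 153) and *Gm29669* (66.3 and 132).

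The largest difference was at *Fgf7*, a fibroblast growth factor secreted by mesenchyme that signals to epithelia. This peak, on chromosome 2 from 126034227 to 126037295, has its centre in a coding exon, 1.10 kb from a transcription start. It had 0.946 normalized reads in controls and 67.6 in mutants, at least 22.5-fold higher. Of the 8 peaks nearest to *Fgf7*, 6 were doubled, and the other two, with differences of 1.47 and 0.60, were also higher in mutants. The next peak, 4.46 kb from a start, had 3.68 normalized reads in controls and 59.7 in mutants. Further into the gene, doubled peaks lay at distances of 19.1, 26.8, 30.4 and 51.9 kb, with 6.41, 20.1, 47.8 and 13.6 normalized reads in controls and 44.0, 41.4, 156 and 58.9 in mutants. All 6 lie within 53.3 kb inside *Fgf7* and the overlapping gene *Fam227b*, so that the mark cannot be assigned to either gene alone. Summed over the 8 peaks, *Fgf7* had 163 normalized reads in controls and 544 in mutants.

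*Zfp385b*, which encodes a zinc finger protein, also had 6 doubled peaks, of 10 nearest to it. The peak from 77550351 to 77553456 on chromosome 2 had 16.6 normalized reads in controls and 189 in mutants. The strongest, from 77540818 to 77544991, had 223 and 449 and was already among the well marked peaks in controls. The promoter peak of the gene had 12.8 and 33.1. A peak 27.8 kb from a start, from 77788308 to 77789656, had 3.34 normalized reads in controls and 33.6 in mutants. Of the remaining 4 peaks, those with differences of 1.18 and 1.10 stayed under the level limit, and those with differences of -0.10 and -0.73 were lower in mutants.

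At *Sntg2*, the gene of γ2-syntrophin, an adapter of the dystrophin complex, 3 of 4 peaks were doubled, all in introns within 27.1 kb. Their normalized reads were 6.45, 0.946 and 6.06 in controls and 44.0, 41.4 and 51.6 in mutants. The middle one was at least 13.8-fold higher. The fourth peak had 150 and 159, a difference of 0.08, and lay next to them.

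*Sytl2*, a Rab effector and a target gene of YAP, had 3 doubled peaks of 8. The peak at an internal transcription start had 50.2 normalized reads in controls and 271 in mutants. The intronic doubled peaks had 21.6 and 83.9 normalized reads, and 12.2 and 32.2. A pair of weaker peaks with differences of 1.85 and 2.13 stayed under the level limit, while the peaks 16.4 and 14.4 kb upstream of the internal start had differences of -0.04 and -0.03. The doubled peaks were thus interspersed with peaks of nearly equal means within 1 gene.

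*Fstl4*, a follistatin-like gene, had 3 doubled peaks of 7. The one at 29.8 kb from its start had 4.63 normalized reads in controls and 37.5 in mutants, that at 24.9 kb had 22.8 and 76.1, and that at 0.732 kb had 62.2 and 214. The long non-coding RNA *E130006D01Rik* had 4 doubled peaks of 20. The largest difference among them was 3.42, with 13.1 normalized reads in controls and 140.1 in mutants, in an intron on chromosome 5 from 111753989 to 111756360. Its nearest protein-coding gene was *Mn1*, and the stretch shown above comes from the next doubled peak, with 69.6 and 209. *Mir6387*, with 28 peaks, had 4 doubled ones with differences between 1.01 and 1.36.

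**Figure D2:**
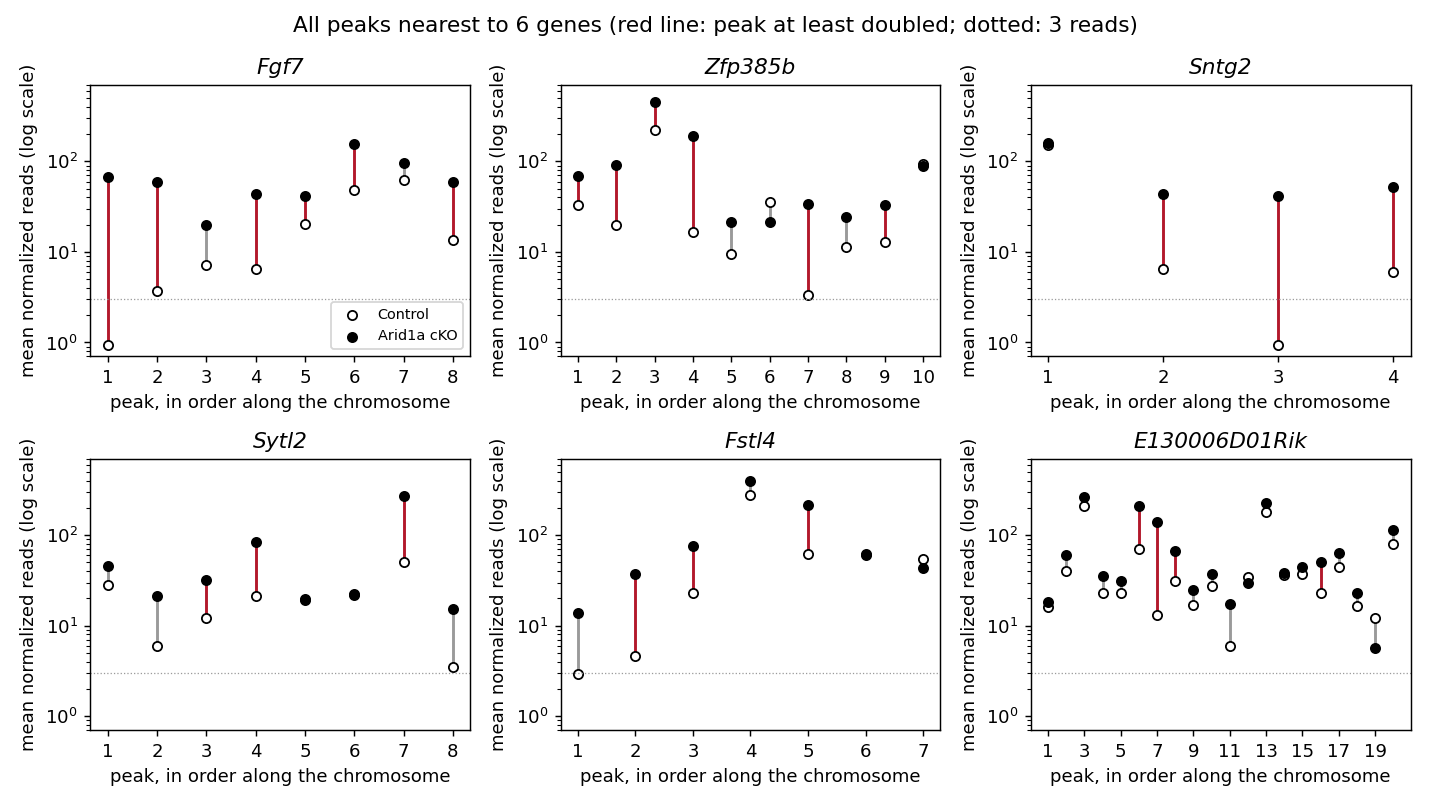
Mean normalized reads (vertical axis, log scale) of all peaks nearest to *Fgf7*, *Zfp385b*, *Sntg2*, *Sytl2*, *Fstl4* and *E130006D01Rik*, in order along the chromosome (horizontal axis), with open points for controls, filled points for *Arid1a cKO* hearts and red lines for doubled peaks. At *Fgf7* all 8 filled points lie above the open ones, while at *Sntg2* and *Sytl2* doubled peaks stand beside peaks with nearly equal means.

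Among peaks with over 3 normalized reads in controls, the largest difference was that of a peak 8.83 kb from *Olfr223*, an olfactory receptor gene. This intergenic peak, on chromosome 11 from 59595533 to 59602300, is 6768 bp wide and had 14.0 normalized reads in controls and 329 in mutants, 23.4-fold higher. It was the single peak nearest to that gene. The others of the 10 largest were the second *Fgf7* peak, both *Zfp385b* peaks with differences of 3.51 and 3.33, the *E130006D01Rik* peak above, and peaks nearest to *Mir1951*, *Elovl7*, *Tenm4*, *Gdf6* and *Anxa10*. The intronic peak at *Elovl7*, a fatty acid elongase, had 5.13 normalized reads in controls and 52.7 in mutants. The peak in *Tenm4*, a teneurin of the cell surface, had 10.6 and 97.0. A second doubled peak inside *Tenm4*, nearest to *Mir708* and named after its values were seen, had 13 and 110. Peaks 92.5 kb from *Mir1951* and 158 kb from *Anxa10* had 5.13 and 58.5, and 5.24 and 44.9.

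Of the 7 peaks at or under 3 reads in controls, those with the highest means in mutants lay at *Fgf7*, *Ptn*, *Sntg2*, *Pcare* and *Dck*. The *Ptn* peak, 137 kb from the start of the gene of pleiotrophin, a heparin-binding growth factor, had 1.44 normalized reads in controls and 49.9 in mutants, at least 16.6-fold higher. The promoter peak of *Pcare*, a gene of the photoreceptor cilium, had 2.79 and 40.2, at least 13.4-fold higher. The *Dck* peak, 42.7 kb from the gene of deoxycytidine kinase, had 1.84 and 37.5, at least 12.5-fold higher. The other two, named after their values were seen, lay at *Bex4* on chromosome X, at least 10.7-fold higher, and *Tchhl1*, at least 11.4-fold higher.

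The doubled peaks with the highest level in *Arid1a cKO* hearts had smaller differences. The highest, in an intron of *Susd1* on chromosome 4 and 71.3 kb from its nearest start, that of *Gm12596*, had 263 normalized reads in controls and 588 in mutants. The next were the *Zfp385b* peak above and peaks nearest to *2810414N06Rik* (201 and 419), *LOC108167736* (146 and 385), *5830418P13Rik* (179 and 375), *Zdhhc21* (167 and 372) and *Arhgap39* (133 and 335), followed by the *Olfr223* peak. Of these 8 peaks, 7 had a difference between 1.01 and 1.40, and the *Olfr223* peak had 4.55.

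Doubled peaks were more often intergenic and less often at promoters than other peaks of the same level. Of the 499, 241 (48.3%, interval 43.9% to 52.7%) had an intergenic centre, 201 (40.3%, 36.1% to 44.6%) an intronic one, 15 lay in coding exons and 16 in other exons. A promoter, taken as the 1000 bp before a start and the 100 bp after it, held the centre of 26 (5.21%, 3.58% to 7.52%). Peaks that were not doubled were intergenic in 30.2%, intronic in 50.9% and at promoters in 11.4%. Strong peaks lie more often at promoters, so the peaks that were not doubled were also weighted to the levels of the doubled peaks in *Arid1a cKO* hearts. The weighted shares were 31.2% intergenic, 49.5% intronic and 11.7% at promoters, which lie outside the intervals of the doubled peaks for each of the 3 classes. Halved peaks were 32.4% intergenic, 61.1% intronic and 1.99% at promoters. These intervals cover counting error only, and neighbouring peaks of 1 locus are not independent. The median distance to the nearest transcription start was 24.1 kb in doubled, 24.9 kb in halved and 15.4 kb in all peaks that were not doubled. In doubled peaks, 11.6% of centres lay within 1 kb of a start, against 24.5% in the weighted remainder, and 14.8% lay at 100 kb or more, against 9.96%.

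**Figure D3:**
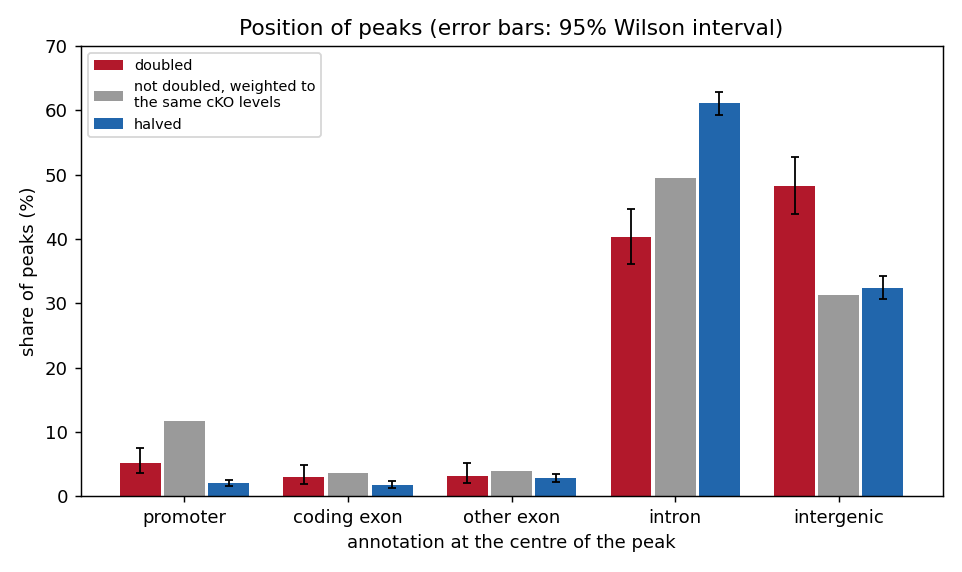
Share of peaks (vertical axis, percent) by the annotation at the centre of the peak (horizontal axis), for doubled peaks, for all other peaks weighted to the same levels in *Arid1a cKO* hearts, and for halved peaks, with 95% Wilson intervals for the doubled and halved peaks. The doubled peaks are intergenic in 48.3%, against 31.2% of the weighted peaks and 32.4% of the halved ones.

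The 26 promoters were those of 16 protein-coding and 10 long non-coding genes. The largest differences among them were those of *Pcare* and of *Bdnf*, a neurotrophin. The *Bdnf* peak, at an internal start of the gene on chromosome 2 from 109693193 to 109695746, had 9.51 normalized reads in controls and 72.5 in mutants. The promoter peak of *Col12a1*, a fibril-associated collagen, had 17.6 and 41.4. One at an internal start of *E2f2*, a transcription factor of the cell cycle, had 24.3 and 51.3, while the peak at the first start of that gene had 95.7 and 130.7 and was not doubled. The promoter peak of *Aspm*, a spindle protein of dividing cells, had 37.3 and 75.1. *Aspm* was named after its values were seen. The median promoter of the 16 protein-coding genes had 17.8 normalized reads in controls and 43.5 in mutants. Those of the 10 long non-coding genes had medians of 19.2 and 65.8. Over all peaks the medians were 44.9 in controls and 42.8 in mutants, so that both kinds of promoter were lower in controls only.

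Doubled peaks were of medium width and slightly poor in GC. The median width was 1946 bp, against 2532 bp in the other 25949 peaks with a concentration of at least 5 in mutants and 2057 bp in halved peaks. At the same level in mutants the direction was the other way, with a mean width of 2308 bp in doubled peaks and a weighted mean of 2245 bp in peaks that were not doubled. The median GC content was 46.2%, against 48.9% in those other peaks and 47.0% in halved ones. Repeats masked in the reference took a median of 15.1% of a doubled peak and 14.9% of the other peaks with a concentration of at least 5. Doubled peaks lay on every chromosome except Y, which had 1 peak in all. They were 0.425% of the peaks on chromosome 19, 0.638% on chromosome X and 1.54% on chromosome 12, the lowest and highest share of an autosome being those of 19 and 12. The nearest gene was protein-coding for 76.8% of doubled peaks and for 82.2% of the peaks that were not doubled. Means weighted to the same level gave a GC content of 48.6% in the peaks that were not doubled and 47.2% in doubled ones.

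Position also varied with the difference outside the limit. Among peaks with a concentration of at least 5 in mutants, 19.7% were intergenic where the difference lay between -0.5 and 0, 27.3% between 0 and 0.5, 38.9% between 0.5 and 1, 48.9% between 1 and 1.5, 47.6% between 1.5 and 2, and 45.6% at 2 or more. Promoters were 22.1%, 18.8%, 6.93%, 5.0%, 7.32% and 3.51% of the same classes. On the other side of 0, promoters were 5.91% between -1 and -0.5 and 2.21% under -1, and intergenic centres 27.3% and 30.5%, so that the promoter share was lower for large differences of either direction. The largest class holds 11931 peaks and the smallest 57. Median width dropped from 2646 bp to 1948 bp between the class from -0.5 to 0 and that from 1 to 1.5, while the median level in mutants dropped from 143 to 46.5 normalized reads, so that width and level moved together.

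Peaks around the doubled ones also had higher means in mutants. Peaks that were not doubled but lay within 10 kb of a doubled peak had a median difference of 0.30 (quartiles 0.00 and 0.63), and 74.2% of these 472 peaks were above 0. The median was 0.14 in the 1357 peaks at 10 to 50 kb, 0.06 in the 1413 at 50 to 100 kb, and 0.00 in the 8173 at 100 to 500 kb. With the peaks limited to a concentration of at least 5 over all samples, the medians were 0.24, 0.09, 0.04 and -0.01. Around halved peaks the medians ran from -0.27 within 10 kb and -0.06 at 10 to 50 kb to 0.02 and 0.07 further out. Of the 472 neighbours within 10 kb of a doubled peak, 11 had a difference of -1 or less. These neighbours come from the same libraries and their values can share reads of 1 broad region, so they are a description of the loci and not a second measurement.

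**Figure D4:**
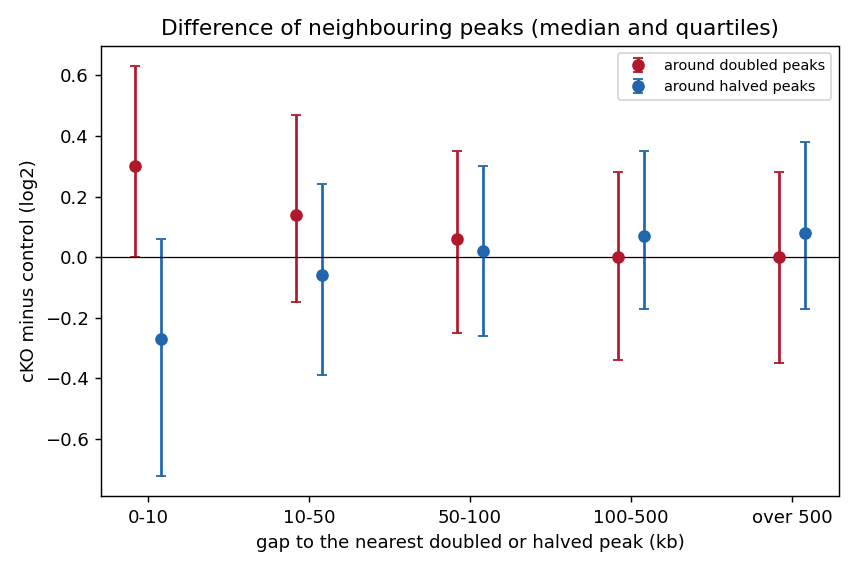
Difference between *Arid1a cKO* and control concentrations (vertical axis, log2) of peaks that are themselves not doubled, or not halved, by the gap to the nearest doubled or halved peak (horizontal axis, kb), with medians as points and quartiles as bars. The median drops from 0.30 within 10 kb of a doubled peak to 0.00 beyond 100 kb, and around halved peaks it lies at -0.27 within 10 kb.

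Some doubled peaks stood near each other. The same spacing was not computed for other peaks, so whether doubled peaks lie closer together than others was not tested. Another doubled peak lay within 10 kb of 63 of them and at 10 to 50 kb of 69, while 265 (53.1%) had none within 500 kb. Joined at gaps of up to 50 kb, 38 doubled peaks formed 11 runs of 3 or more, 94 formed 47 pairs, and 367 stood alone. The run with the most peaks was that of *Fgf7*, with 6 over 53.3 kb, followed by those of 4 peaks at *E130006D01Rik* over 66.2 kb and at *Zfp385b* over 35.1 kb. Runs of 3 lay at *Sntg2*, *Sytl2*, *Fstl4*, *Osbpl3*, *LOC108167736*, *4833412C05Rik*, *Supt20* and *Hmcn1*. No peak inside any of these 11 runs had a difference of -1 or less, which the rule fixed in advance for the 38 doubled ones. Few other peaks lay inside the runs. The run of *Sntg2* held 3 peaks in all, and that of *E130006D01Rik*, with the most, held 11. Among 417 nearest genes, 59 had 2 or more doubled peaks, 15 had 3 or more, and 52 were also nearest to a halved peak. The share of all genes that are nearest to a halved peak was not computed, so the count of 52 cannot be compared with it. The 2214 peaks with the same nearest gene as a doubled peak that were not doubled themselves had a median difference of 0.16 (quartiles -0.19 and 0.49), and 3.25% of them were halved, against 5.89% of all peaks.

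Growth factor genes had a share of doubled peaks above that of all peaks. The study itself reported some enrichment of growth factor activity among its gained peaks in these samples. Those gained peaks were called by the study at an FDR limit. They are a smaller set than the doubled peaks, chosen by another rule. The study also named *Fgf7* as a possible target of YAP and TEAD. This share is therefore no independent evidence for the list. Of the 219 peaks nearest to 52 of 69 listed growth factor genes, 17 (7.76%, interval 4.90% to 12.1%) were doubled, against 1.09% of all peaks, and 32 (14.6%) had a difference of at least 1 at any level, against 4.57%. The median difference of the whole list was 0.07, against 0.01 over all peaks, and 15 of its peaks (6.85%) were halved, against 5.89%. The doubled peaks belonged to 9 genes. *Fgf7* gave 6 of them, and without it 11 of 211 peaks (5.21%) were doubled, below the 6.25% of the fetal and stress genes given further on. Ligands of the fibroblast growth factor family were *Fgf7* and *Fgf20*, the latter with peaks of 99.7 normalized reads in controls and 315 in mutants and of 16.9 and 40.2, 161 and 267 kb from its start. *Gdf6*, a member of the bone morphogenetic protein family, had doubled peaks 18.3 and 14.4 kb upstream, with 3.89 and 36.3 normalized reads in controls and 35.5 and 120 in mutants. Ligands of the epidermal growth factor receptor were *Areg*, with 6.41 and 37.0, and *Btc*, with 21.0 and 56.1. The others were *Bdnf*, described above, a peak 139 kb from *Hgf*, the ligand of Met, with 18 and 40.2, and a peak 26.4 kb from *Csf1*, a growth factor of macrophages, with 18.9 and 41.4. *Ptn* had a second doubled peak with 23.3 and 48.8, and 15 of its 16 peaks were higher in mutants.

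Genes of the extracellular matrix had 13 doubled peaks among 337 (3.86%, interval 2.27% to 6.49%), at 7 of 56 genes, and 8 halved ones (2.37%), against 1.09% doubled and 5.89% halved of all peaks. At a difference of at least 1.5 the share was 0.297%, against 0.302% of all peaks. The median difference of the list was 0.32. The study also reported some enrichment of matrix proteins among its gained peaks in these samples, so that these shares are no independent evidence either. The collagen genes were *Col12a1*, with a second doubled peak of 42.8 and 105 normalized reads, *Col3a1*, with peaks of 12 and 33.1 and of 13.6 and 35.5, and *Col5a1*, with 19.3 and 43.1 and with 23.6 and 49.2. *Hmcn1*, the gene of hemicentin, had 3 doubled peaks, the strongest with 52.3 and 110. *Adamts12*, a secreted protease, had peaks of 43.1 and 97.0 and of 15.1 and 33.6. *Lama2*, a laminin chain, and *Thbs2*, a thrombospondin, had 1 each. Except for the promoter of *Col12a1*, these peaks lay in introns or between genes.

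Markers of fibroblasts were also higher in mutants, beside these matrix genes. Of the 51 peaks of 8 fibroblast markers, 4 were doubled (7.84%, interval 3.09% to 18.5%), against 1.09% of all peaks. A difference of at least 1 was found in 9 (17.6%), against 4.57%. None was halved, against 5.89%, and the median difference was 0.44. Summed over its peaks, each of the 8 markers was higher in mutants, by factors from 1.19 for *Postn* to 1.51 for *Col3a1*. The whole list had 3760 normalized reads in controls and 5107 in mutants. The doubled peaks were the *Col3a1* pair and a pair 161 and 183 kb from *Tcf21*, a transcription factor of cardiac fibroblasts, with 26.4 and 68.1 normalized reads and with 26.2 and 56.9. The lists share 6 genes, and without them 11 of 300 matrix peaks (3.67%) were doubled, with a median difference of 0.30. The part of fibroblasts in the doubled peaks was not tested.

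Markers of other cell types gave mixed values. With the normalized reads of all peaks of a list summed, so that the strongest peaks weigh most, the factor of mutants over controls was 1.36 for fibroblasts, 3.64 for atrial markers, 0.930 for cardiomyocytes, 1.02 for endothelium, 1.10 for macrophages and leukocytes, 1.10 for smooth muscle and pericytes, 1.13 for epicardium and 0.887 for Schwann cells and neurons. Single genes of these lists were higher by more than any fibroblast marker, and they were named after their values were seen. Examples were *Acta2*, smooth muscle actin, with a factor of 1.78, and *Tagln* with 1.65. *Ptprc*, the leukocyte antigen CD45, had 1.84, *Mrc1*, a macrophage receptor, 1.82, and *Aldh1a2*, a retinoic acid enzyme of the epicardium, 1.58. Others of the same lists were lower in mutants, such as *Cnn1* (0.737), *Laptm5* (0.666) and *Wt1* (0.879). Of the markers with a peak, 4 of 8 for smooth muscle and pericytes, 6 of 7 for macrophages and leukocytes and 3 of 4 for epicardium were higher. The part of these cell types in the doubled peaks was not tested. Doubled peaks stood at a few of these markers. They were 2 of 72 endothelial peaks (2.78%, interval 0.765% to 9.57%) and 1 of 35 of smooth muscle and pericytes (2.86%, 0.506% to 14.5%). Both intervals hold the 1.09% of all peaks. *Flt1*, a receptor of VEGF in endothelium, had 2 doubled peaks of 18, with 11.6 and 36.0 normalized reads and with 14.4 and 32.7. *Tagln*, an actin-binding protein of smooth muscle, had 1, with 15.6 and 33.1. Epicardial, leukocyte, and Schwann and neuron markers had none. Of the 4 erythroid markers, 1 had a peak, with 5.98 and 13.7, a factor of 2.30.

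Atrial markers included some of the larger differences. Of 5 peaks nearest to 3 of 4 atrial markers, 2 were doubled (40%, interval 11.8% to 76.9%), against 1.09% of all peaks. A difference of at least 1 was found in 3 (60%), against 4.57%. *Nppa*, the gene of atrial natriuretic peptide, had 1 peak, on chromosome 4 from 147998006 to 148005329, with 49.5 normalized reads in controls and 234 in mutants, 4.72-fold higher. *Myl7*, the atrial regulatory myosin light chain, had a doubled peak 6.92 kb away with 8.88 and 44.6, and a peak over the gene itself with 2.45 and 11.4, under the level limit. The doubled promoter peak of *Gm11967*, named after its values were seen, lies from 5912939 to 5918625 on the same chromosome, beyond *Myl7*, whose doubled peak ends at 5892865, and had 93.7 and 280.1. *Myl4* was doubled at neither of its peaks, which together had 27.5 and 31.4, and *Sln* was nearest to none. Atrial tissue in the samples was not tested.

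Among 64 peaks of the fetal and stress genes of the heart, which include these markers, 4 (6.25%, interval 2.46% to 15.0%) were doubled, against 1.09% of all peaks. Besides *Nppa*, *Myl7* and *Tagln*, this was a peak 59.0 kb from *Actn1*, non-muscle α-actinin, with 15.0 and 37.5 normalized reads. The median difference of this list was -0.01, and 3 of its peaks were halved. Genes of the mature cardiomyocyte had 3 doubled (1.41%, 0.480% to 4.06%) and 32 halved (15.0%) peaks among 213, with a median difference of -0.31. The doubled ones lay 7.17 kb from *Myl2*, the ventricular myosin light chain, with 13 and 78.2, 51.1 kb from *Atp2a2*, the calcium pump of the sarcoplasmic reticulum, with 14.6 and 38.3, and 15.6 kb from *Cd36*, a carrier of fatty acids, with 22.3 and 44.6. The *Myl2* peak lies within 50 kb of a doubled peak nearest to *Cux2* that had 9.58 and 67.2. The other *Myl2* peak was lower in mutants, and both together had 2811 and 2600. No peak of 141 at cardiac transcription factors was doubled, which allows a share of up to 2.65% at the upper bound of the interval.

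Targets of YAP and TEAD had 4 doubled peaks among 198 (2.02%, interval 0.788% to 5.08%), with a median difference of 0.10, 17 peaks (8.59%) with a difference of at least 1, and 11 halved peaks (5.56%). Of all peaks, 1.09% were doubled, 4.57% had a difference of at least 1 and 5.89% were halved. The doubled share of all peaks thus lies inside the interval of the list, and the halved shares are close. The list share with a difference of at least 1 at any level, 8.59%, was above the 4.57% of all peaks. Of the 4, 3 lay in *Sytl2* and 1 in an intron of *Rbms3*, an RNA-binding protein, with 15.3 and 36.5 normalized reads. No other listed gene had a doubled peak. *Sytl2* is a gene that the study itself examined in these samples, so that it is no independent evidence for the list. Genes of the cell cycle had 3 doubled peaks among 107 (2.80%, interval 0.958% to 7.92%), none halved, and a median difference of 0.20. The doubled share of all peaks lies inside this interval too, and 5 peaks (4.67%) had a difference of at least 1, against 4.57%. The doubled cell cycle peaks were at *Ccnd2*, a D-type cyclin, with 13.7 and 41.6, at the internal *E2f2* start, and at *Ccnb1*, a mitotic cyclin, with 29.2 and 60.1. Among other developmental transcription factors, immediate early genes and BAF subunits, 1 peak each was doubled, of 90, 85 and 74, nearest to *Sox5*, *Ier2* and *Ss18*. Halved peaks were 11 (12.2%), 1 (1.18%) and 11 (14.9%), against 5.89% of all peaks. *Myh6*, whose promoter drives the transgene, had 1 peak with 3591 and 3929. *Xist* had 1 peak with 217 and 234, and it was not doubled.

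The TEAD core was common in doubled and in other peaks. The study reported TEAD motifs as the most enriched in its gained peaks, with all its H3K27Ac regions as background. Its motif search and its peaks differ from the letter matches and doubled peaks used here, so the shares below do not test that result. At least 1 match to CATTCC was present in 359 of 499 doubled peaks (71.9%, interval 67.8% to 75.7%), against 65.3% of the peaks that were not doubled and 70.6% after weighting to the widths and GC content of the doubled ones. In the central 500 bp the share was 31.3% (27.4% to 35.5%), against 27.1% in the weighted peaks, which lies just under the interval. Per kb the core occurred 0.674 times in doubled peaks, 0.611 in peaks that were not doubled and 0.650 in halved ones. The longer form ACATTCCA, whose matches are also matches to the core, was present in 77 (15.4%, 12.5% to 18.9%), against 12.2% in the weighted peaks, which lies just under the interval. Per kb of sequence, the longer form occurred 0.0756 times in doubled peaks, 0.0535 in peaks that were not doubled and 0.0568 in halved ones. By the size of the difference among doubled peaks, this rate was 0.0691 from 1 to 1.5, 0.114 from 1.5 to 2 and 0.0636 at 2 or more, in 360, 82 and 57 peaks, and did not increase throughout. The whole *Fgf7* peak from which a stretch is shown held 4 cores.

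Other motifs were counted in the same way. The study also reported homeobox motifs in its gained peaks, and motifs of MEF2 and estrogen-related receptors in its peaks with reduced mark. The AP-1 motif TGANTCA was in 53.3% of doubled peaks (48.9% to 57.6%), against 49.1% of the weighted peaks. The CArG box was in 15.8% (12.9% to 19.3%), against 12.2%, a value just under the interval. MEF2 matches were in 5.21% (3.58% to 7.52%), against 8.96% in the weighted peaks and 12.3% in halved peaks. The ETS motif CCGGAAG was in 12.2% (9.64% to 15.4%), against 17.1%. The values of MEF2 and ETS in the weighted peaks lie above the intervals. Both homeobox forms, TAATTA at 41.5% and TAATCC at 51.9%, had weighted values of 41.7% and 55.2%, inside the intervals. The same holds for AGATAA of GATA factors (64.3% against 67.7%), TGTGGTT of RUNX (40.9% against 39.0%), ACAATGG of SOX (24.8% against 26.8%), the E-box CACGTG (29.9% against 29.0%), CAGGTG of ZEB factors (72.7% against 73.3%) and TCAAGGTCA of estrogen-related receptors (5.81% against 7.25%). The open E-box CANNTG, which contains CACGTG and CAGGTG, was in every doubled peak and in 99.9% of the weighted ones. All matches were counted on both strands.

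**Figure D5:**
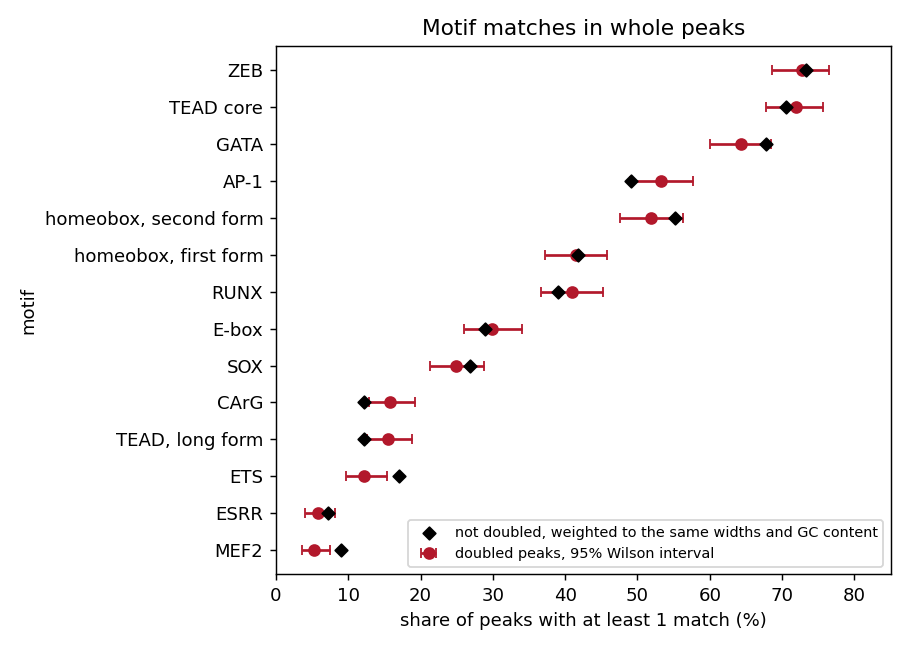
Share of peaks with at least 1 match (horizontal axis, percent) for 14 of the 15 motifs (vertical axis), with doubled peaks as points with 95% Wilson intervals and the peaks that are not doubled, weighted to the same widths and GC content, as diamonds. The diamonds of the long TEAD form and of CArG lie below the interval of the doubled peaks, those of ETS and MEF2 above it, and that of the TEAD core, at 70.6%, inside it.

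The peaks with little mark in controls differed in size from the others. Doubled peaks with over 3 and up to 16 normalized reads in controls had a median width of 1669 bp and a TEAD core in 60.6%, and those with over 16 a median width of 2149 bp and a TEAD core in 77.2%. Per kb the cores numbered 0.619 and 0.691. Intergenic centres made up 51.0% and 47.2% of these classes and promoters 4.52% and 5.34%. Of the 7 at or under 3 normalized reads, 3 were intergenic, 2 lay in coding exons, 1 in an intron and 1 at a promoter, and their median GC content was 43.1%.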

How the data were processed

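H3K27Ac ChIP-Seq was measured in P7 ventricles of 2 controls and 2 *Arid1a cKO* mutants, with 4 inputs. Samples were grouped by the labels. Alignment by the authors used BWA (0.7.17-r1188) and mm10. Their peaks came from HOMER (histone style, version 4.11 in the labels) with all inputs merged as background, had to occur in 2 or more samples, and were compared by the authors with DESeq2 (1.24.0) through DiffBind (2.12.0). The values deposited are concentrations as log2 mean normalized reads, over all samples and per group, made by the authors, and their own fold change, p-value and FDR, which were not used here. With 0 columns of single samples in the table, no test between groups, no replicate error and no depth could be computed, and library scaling is not given in the sources used here.

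The rule for doubled peaks, the gene lists and the motifs were chosen with earlier results of these data known. Differences were rounded to 2 decimals. Peaks were joined to GRCm38.p6 and 45756 curated RefSeq transcripts, after a check that the last peak of each of 21 chromosomes ended inside the sequence. The 7 peaks on unplaced sequences, none of them doubled, were left out of all steps after the first count. The nearest transcription start to the centre set the gene, and the centre set the class. Peaks that were not doubled were weighted to doubled ones in 20 bins of *Arid1a cKO* concentration, or in 10 bins of width by 10 of GC content. Shares carry 95% Wilson intervals (scipy 1.17.1), which cover counting error only. Genes named were the doubled peaks of each list, the 10 with the largest difference over 3 control reads, the 5 highest in mutants at or under 3, the 8 highest in mutants, the genes with the most doubled peaks and 3 peaks on each side of the limit. Of genes tied at 3 doubled peaks, those described were picked with their values known. The alternatives were the limits, centring, chromosomes X and Y, low controls, the promoter window, motif form and window, neighbour distance and gene assignment. Steps were tested on simulated data. Python 3.11.15, numpy 2.4.6, pandas 2.3.3, pysam 0.24.0 and matplotlib 3.10.9 were used.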

Additional observations from a re-analysis of the deposited data

How the results depend on the processing

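The count of doubled peaks depended on its limits. It was 965 at a difference of at least 0.8, 139 at 1.5, 1299 at a mutant concentration of at least 4 and 158 at 6, against 499. It was 481 after centring on the median of all peaks, 493 without chromosomes X and Y and 492 with control means over 3 reads.

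At a difference of at least 1.5, control means at or under 3 reads made up 5.04%, the median GC content was 45.1% and the median difference of other peaks within 50 kb was 0.26, against 1.40%, 46.2% and 0.19. Doubled peaks were 0.302% of all peaks at this limit. They were 5.02% for growth factors, 3.13% for fetal and stress genes and 1.01% for targets of YAP and TEAD (interval 0.277% to 3.61%). The share was 0.297% for the extracellular matrix, 0.935% for the cell cycle and 0.469% for mature cardiomyocyte genes. It was 0% for cardiac and other developmental transcription factors, immediate early genes and BAF subunits. At a mutant concentration of at least 6, the low controls made up 0.633%, the median width was 3062 bp, the median GC content 45.7%, the share with a TEAD core 88.0% and the median neighbour 0.25. The TEAD share was counted over whole peaks, which were wider at this limit. No weighted share of other peaks was computed for it, so the 88.0% is no measure of enrichment. Doubled peaks were 0.344% of all peaks. The list shares were 2.28% for growth factors, 1.19% for the extracellular matrix and 1.56% for fetal and stress genes. They were 1.01% for targets of YAP and TEAD (interval 0.277% to 3.61%) and 0.469% for mature cardiomyocyte genes. The cell cycle, cardiac and other developmental transcription factors, immediate early genes and BAF subunits had 0%. Both stricter limits leave fewer doubled peaks by construction.

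Promoters held 13.4% with 2000 bp on either side of a start and 13.6% with any overlap, against 26.3% and 26.1% of the peaks weighted to the same level. A TEAD core lay in the central 500 bp of 31.3% (interval 27.4% to 35.5%), against 27.1% of the weighted peaks, and 15.4% held the longer form. The median neighbour was 0.30 within 10 kb, 0.04 within 500 kb and, in an alternative added after seeing the data, 0.12 for neighbours with a concentration of at least 5. In all, 56 values stayed inside the interval of the value reported or, for the count, within 1.5 times of it, and no median changed sign.

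No paired analysis was possible because the table holds group means and no column of a single sample. No replicate was left out for the same reason, and the unknown depth limits what weak peaks show.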
